A study of Mus musculus with 16 samples.

Results

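The livers of mice that had received caecal microbiota were compared with the livers of mice that had received vehicle alone, whatever the diet of the donor. The 10 recipients of a caecal transfer and the 6 vehicle mice make up all 16 arrays measured, 1 per mouse. Recipients were chosen by their labels, as mice transplanted with microbiota of lean or of obese donors, and the 2 recipient groups were given equal weight. All mice were male C57BL/6 fed normal chow (NC) for 4 weeks, were 6 weeks old at the start and 10 weeks old when the liver was taken, and kept their own microbiota, since no antibiotic was given. The 6 Conv + PBS mice received reduced PBS (mice 1 to 6), the 5 Conv + LM mice caecal content of NC-fed donors (mice 13 to 17), and the 5 Conv + OM(HFD) mice caecal content of donors made obese on a high-fat diet (mice 25, 26, 28, 29 and 30). The caecal content came from pools of donors, so the mice of a recipient group share an inoculum. The labels call the Conv + PBS mice controls that were not transplanted, and vehicle is their only control: handling and gavage are shared by the groups, and a transfer of sterile or killed content was not among the samples used here.

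Blood from the gut reaches the liver through the portal vein, carrying bacterial products, bile acids that bacteria have modified, and fermentation products. Hepatocytes, which make up most of the organ's mass, answer to these through nuclear receptors and through the sterol- and insulin-responsive factors that set lipid synthesis, while Kupffer cells and sinusoidal endothelial cells take up bacterial material directly. The question put to the arrays was which transcripts differ once foreign caecal bacteria have been given, before any difference between donors is considered.

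Of 20404 genes tested, 349 were higher and 398 were lower after any transfer at an unadjusted limma p under 0.05 (1.71% and 1.95% of the genes), and none passed the threshold after Benjamini-Hochberg adjustment (smallest adjusted p 0.99995). Of all calls, 46.7% were higher, and 63.5% were (311 higher, 179 lower) when the median of each array was subtracted in place of its 75th percentile. The threshold alone would let through 1020 genes if no gene differed, more than the 747 observed. "Called" below means this unadjusted threshold. The exact permutation p given beside a limma p tests the same difference in the same mice and adds no support to the call. A call kept in another fit of these mice adds none either. Differences were small: the median size among called genes was 0.32 on the log2 scale, 568 of the 747 were under 0.5, and of the 26 called genes that differed by more than 1, 21 were not well above background on every array. Levels are log2 intensities relative to the 75th percentile of the same array, so that 0 is the brightness of that percentile and a difference of 1 is a doubling. Transfer accounted for 5.81% of the variance over all genes and the slide on which an array lay for 7.92%. Any split of the arrays takes up some of the variance, so neither number by itself shows an effect. Each slide held 3 Conv + PBS mice and 5 recipients. The 75th percentile lay at a brightness of 223.1 to 323.7 in Conv + PBS mice and of 237.6 to 318.6 in recipients. The 10 hepatocyte markers had median difference 0.04 with no call, and albumin stood at a mean of 10.68 in Conv + PBS mice and 10.72 in recipients.

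**Figure D1:**
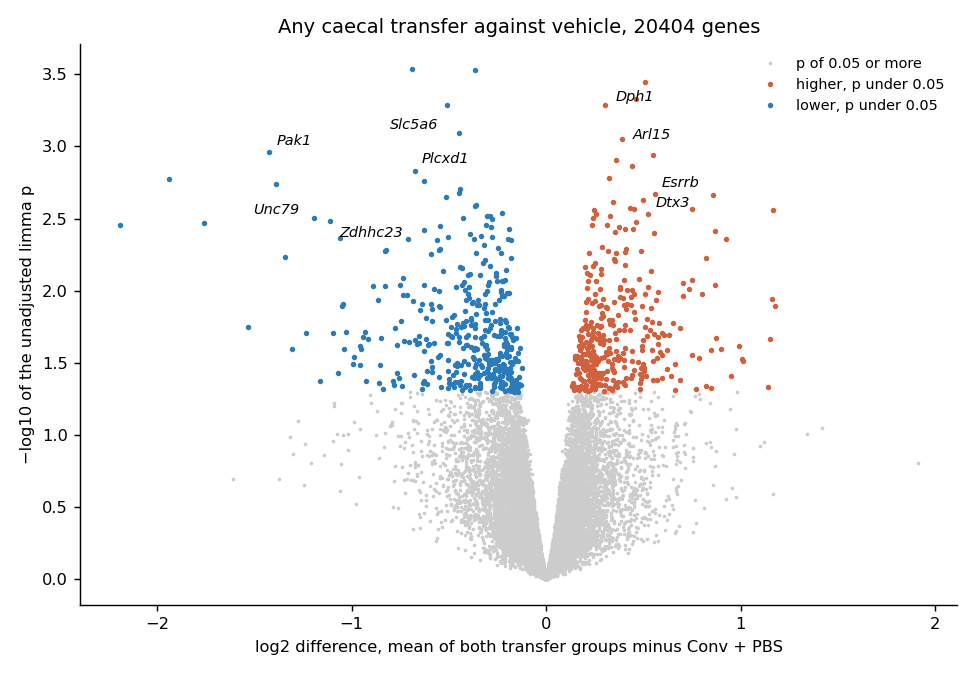
Log2 difference between any transfer and Conv + PBS (horizontal axis) against the −log10 of the unadjusted limma p (vertical axis) for 20404 genes, each a point. The 349 higher and 398 lower called genes are coloured, and most lie within 0.5 of 0.

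One vehicle mouse stood apart before any comparison was made. Conv + PBS mouse 1 had a mean log2 level of 3.27 over the 14 Kupffer cell markers, where the other Conv + PBS mice ranged from 1.09 to 1.71, and of 3.04 over 16 interferon-gamma and MHC class II genes, where they ranged from 0.78 to 1.38. Over 10 neutrophil markers it lay at 1.49, and Conv + OM(HFD) mouse 25 at 1.40, while the other 14 mice lay between -1.43 and -0.47. Both mice were kept, and several results that rest on mouse 1 or mouse 25, though not all, are given with and without that mouse.

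Within every group, levels also followed the numbers the mice bear. The labels do not say what the numbering stands for, and the pattern was noticed in the data. Arntl, the core activator of the circadian clock, was at -2.23, -2.33, -1.29, -0.59, -0.73 and 0.20 in Conv + PBS mice 1 to 6, at -2.73, -1.26, -0.63, -0.89 and 0.32 in Conv + LM mice 13 to 17, and at -2.28, -1.16, -1.10, -0.55 and 0.74 in Conv + OM(HFD) mice 25, 26, 28, 29 and 30. The lowest-numbered mice of each group were thus low and the highest-numbered were high, with about the same span in the 3 groups. In a limma fit with the place of a mouse in its group's numbers as a linear term, 1817 genes (8.91%) had a slope with an adjusted p under 0.05, of which 886 rose and 931 fell with the number. Among them were 4 of 5 morning clock genes (rising), 14 of 24 PPAR-alpha and fasting genes (rising), 9 of 13 heat shock genes (rising), 9 of 24 cholesterol genes (falling) and 11 of 22 type I interferon targets (falling). With that term in the fit, 490 genes were called higher and 530 lower after transfer (2.4% and 2.6%), none passed adjustment (smallest adjusted p 0.826), and all 53 called genes that are named here kept their call.

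The groups did not overlap at all in 3 genes, each of them lower after transfer (0.0147% of the genes), and no gene did so in the upward direction (0%). Mice dealt to the groups at random would separate, in either direction, a share of 0.00025 of genes that do not differ. These 3 genes are a smaller share, so as many would be found if no gene differed. They were Plcxd1, a phospholipase-like protein, Smad5, which carries signals of bone morphogenetic proteins to the nucleus, and Kif3a, a motor subunit that builds cilia. The level of each is that of its brightest 60-base probe, whose middle 30 bases (positions 16 to 45) are printed so that the transcript measured can be found.
Plcxd1: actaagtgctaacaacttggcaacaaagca
Smad5: gcttcaattctgccatcttttgatacttat
Kif3a: cagtttcagaaagaaatcgaagagctgaag
On mm9 the array design places these probes at chr5:110534845-110534904, chr13:56843578-56843637 and chr11:53397887-53397946, all on the plus strand. Whether they lie in coding or untranslated exons was not examined here.

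Plcxd1 was at -0.47, -0.17, -0.61, -0.52, -0.41 and -0.59 in Conv + PBS mice 1 to 6. It was at -0.78, -0.69, -1.47, -0.99 and -1.78 in Conv + LM mice 13 to 17 and at -1.38, -0.73, -0.68, -1.28 and -1.58 in Conv + OM(HFD) mice 25, 26, 28, 29 and 30. All 10 recipients were thus below all 6 vehicle mice, but the highest recipient (-0.68) came close to the lowest vehicle mouse (-0.61). The difference was -0.67 ± 0.17 (SE). A gene without overlap takes the smallest p a permutation of mice can give by the choice itself, so no test is given for these 3. The Plcxd1 difference was -0.58 on slide 1, -0.68 on slide 2 and -0.40 with normexp background correction, and Plcxd1 kept its call in all 31 other fits tried for single genes.

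Smad5 differed little in size and held tightly within groups. Its levels were 2.95, 2.95, 2.96, 3.09, 2.94 and 2.94 in Conv + PBS mice, 2.77, 2.87, 2.79, 2.87 and 2.74 in Conv + LM mice, and 2.70, 2.62, 2.73, 2.86 and 2.87 in Conv + OM(HFD) mice. The difference was -0.19 ± 0.06 (SE).

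Kif3a was at -0.06, -0.03, 0.08, 0.14, 0.12 and 0.03 in Conv + PBS mice. It was at -0.15, -0.27, -0.08, -0.08 and -0.34 in Conv + LM mice and at -0.18, -0.11, -0.13, -0.09 and -0.07 in Conv + OM(HFD) mice. Vehicle and recipient groups were 0.01 apart at their nearest mice, and the difference was -0.20 ± 0.06 (SE). With the median of each array subtracted in place of the 75th percentile, with normexp background correction, or with each gene's probes averaged, no gene was lower without overlap. The calls of Smad5 and Kif3a were lost with the median and with the mean of probes.

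**Figure D2:**
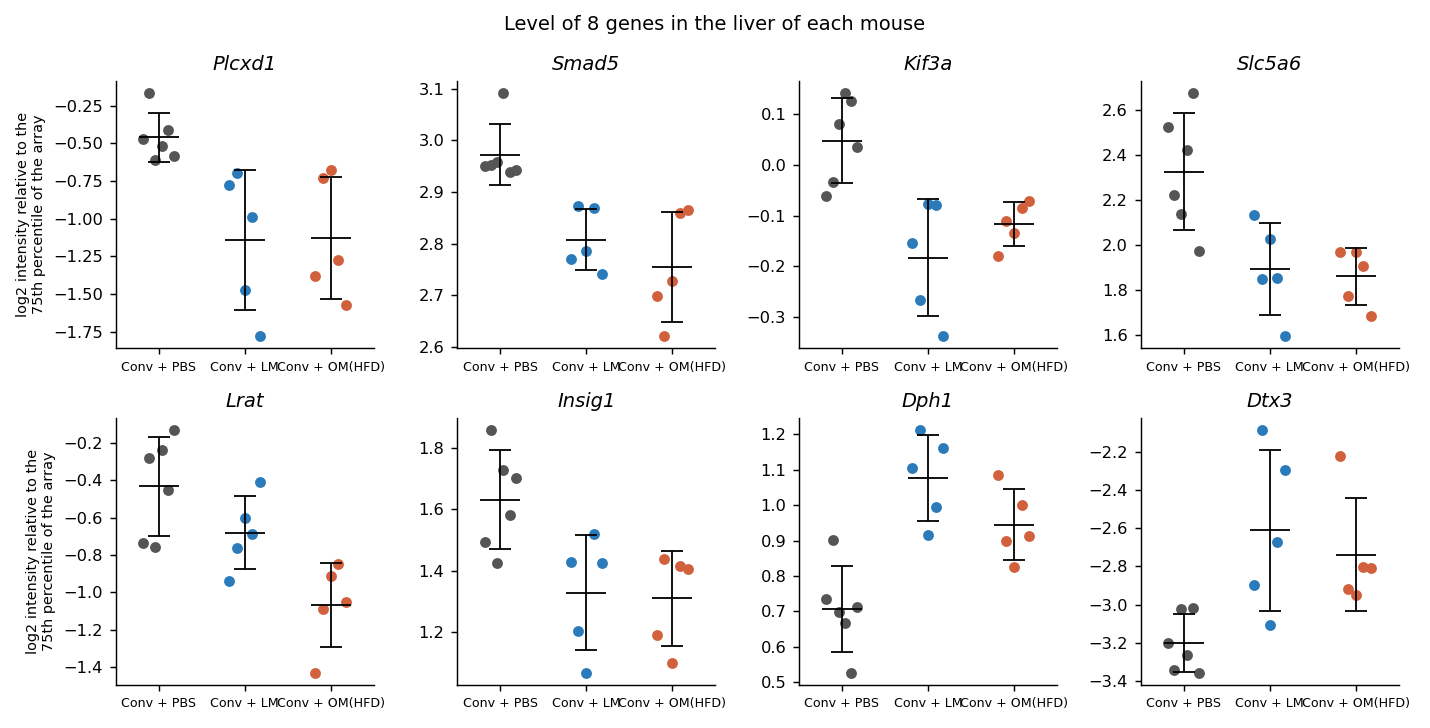
Log2 intensity relative to the 75th percentile of the array for 8 genes (vertical axes), with 1 point per mouse in the 3 groups (horizontal axes) and the group mean ± SD as bars. Plcxd1, Smad5 and Kif3a do not overlap between Conv + PBS and the 2 recipient groups, while the other 5 genes do.

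The 12 genes of smallest p among those lower after transfer, apart from predicted and clone names, were led by Slc5a6, the sodium-dependent transporter of biotin, pantothenate and lipoate. Slc5a6 was at 2.52, 2.22, 2.14, 2.42, 2.67 and 1.97 in Conv + PBS mice. In recipients it ran from 1.60 to 2.13 in Conv + LM and from 1.69 to 1.97 in Conv + OM(HFD), so that 8 of 10 recipients were below every vehicle mouse. The difference was -0.45 ± 0.11 (SE; limma p = 0.000808, exact permutation p = 0.000999), near -0.43 in Conv + LM and -0.47 in Conv + OM(HFD). The transporter kept its call in all 31 other fits. Exact permutation tests here are two-sided and run over the 8008 ways to split the mice into 10 and 6.

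Lrat, the enzyme that esterifies retinol for storage in stellate cells, differed by -0.44 ± 0.12 (SE; limma p = 0.00196, exact permutation p = 0.00824). Its levels were -0.74, -0.28, -0.75, -0.24, -0.45 and -0.13 in Conv + PBS mice, -0.94, -0.76, -0.60, -0.69 and -0.41 in Conv + LM mice, and -1.43, -1.09, -0.91, -0.85 and -1.05 in Conv + OM(HFD) mice. All 5 Conv + OM(HFD) mice were below the vehicle group, whereas 3 Conv + LM mice lay within it, and the 2 recipient groups were called apart by -0.39. The other 12 stellate cell and collagen genes were not called, and the median of the list was 0.04.

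Gstt2, a glutathione transferase, differed by -0.45 ± 0.12 (SE), and 7 of 10 recipients were below every vehicle mouse. Its 2 probes did not run the same way, and its call was lost with their mean. Rap1a, a small GTPase, differed by -0.23 ± 0.06 (SE) with 9 of 10 recipients below every vehicle mouse, and all 4 of its probes ran downward, though their mean was not called. Fam126a (-0.30), Ccsap (-0.29), Doxl2 (-0.43) and Adig (-0.63), the last known as an adipocyte protein, completed the genes bright enough on 15 or 16 arrays. Pak1, a kinase of the cytoskeleton, had the largest fitted value of the 12 (-1.42), but its probe was well above background in 4 Conv + PBS mice and in 1 of the 10 recipients, so the number is near the floor of the array. The same holds for Zdhhc23 (-1.11; 5 Conv + PBS mice and 3 recipients above background), while Unc79 (-1.19) was measured on 14 arrays. With normexp background correction the calls of Ccsap (-0.10), Doxl2 (-0.13) and Zdhhc23 (-0.17) were lost, and the differences of Adig and Pak1 were -0.16 and that of Unc79 -0.40.

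Among genes higher after transfer, with predicted and clone names left out, Dph1 had the smallest p. It takes part in the diphthamide modification of elongation factor 2. Dph1 was at 0.74, 0.90, 0.70, 0.67, 0.53 and 0.71 in Conv + PBS mice. Its lowest and highest levels were 0.92 and 1.21 in Conv + LM mice and 0.83 and 1.08 in Conv + OM(HFD) mice, and 8 of 10 recipients were above every vehicle mouse. The difference was 0.30 ± 0.07 (SE; limma p = 0.000516, exact permutation p = 0.000749; 23.4% in linear terms).

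Dtx3, a ubiquitin ligase of the Deltex family, had 9 of 10 recipients above every vehicle mouse, with a difference of 0.53 ± 0.15 (SE). Fhad1 (0.32) and Snapc4 (0.24), a subunit of the complex that starts transcription of small nuclear RNAs, also had 9 of 10 above. Arl15 (0.39), Tbl1xr1 (0.36), a subunit of the nuclear receptor corepressor complex, and Zfp777 (0.25) had 8 of 10. Esrrb, an orphan nuclear receptor related to the estrogen receptors, differed by 0.56 ± 0.15 (SE) at a low level, with means of -2.69 in Conv + PBS mice, -2.11 in Conv + LM mice and -2.15 in Conv + OM(HFD) mice. The Esrrb difference was 0.84 on slide 1, 0.27 on slide 2 and 0.21 with normexp background correction, under which that of Dtx3 was 0.17. Mms19 (0.25), Slc12a9 (0.33) and Zfp770 (0.31) were the other higher genes reported here. The calls of Arl15 and Zfp770 were lost with the mean of probes.

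**Figure D3:**
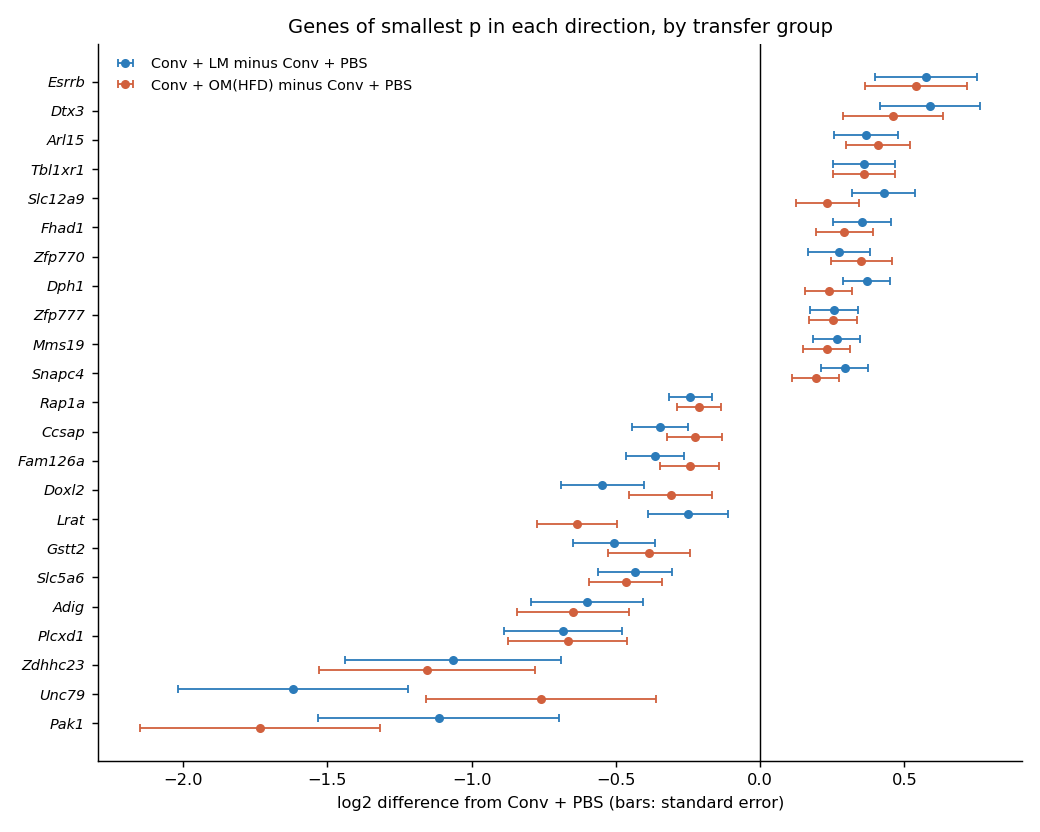
Log2 difference from Conv + PBS (horizontal axis) of Conv + LM and of Conv + OM(HFD) mice for the named genes of smallest p in each direction (rows), with standard errors as bars. Both groups were compared with the same 6 vehicle mice, so their position on the same side of 0 is set in part by those mice.

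Because both recipient groups share the vehicle mice, they were also set against each other, a comparison in which the vehicle mice have no part. At an unadjusted limma p under 0.05, 545 genes differed between Conv + OM(HFD) and Conv + LM (2.67%), of which 281 were higher and 264 were lower in Conv + OM(HFD), and none passed adjustment (smallest adjusted p 0.999). Of the 747 genes called for any transfer, 33 (4.42%) were also called between the recipient groups. In these the pooled difference averages unlike groups. Slc37a2, a sugar phosphate exchanger, had means of -3.25 in Conv + PBS, -3.97 in Conv + LM and -3.24 in Conv + OM(HFD) mice, but its probe was well above background in 5 of 6, 1 of 5 and 5 of 5 of these mice, so the Conv + LM value is near the floor of the array. Abca9, a lipid transporter, had means of -1.63, -2.40 and -1.78 in the same order, and Dnajc17 -2.45, -1.79 and -2.37. Dpy19l4 differed from vehicle by 0.10 in Conv + LM and 1.23 in Conv + OM(HFD) mice, and Eif4e3, which binds mRNA caps, by -0.12 and -0.73. The pooled exact permutation p was above 0.05 for Slc37a2, Abca9, Dnajc17 and Dpy19l4, and the calls of these and of Eif4e3 were lost with normexp background correction.

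Among the 33 gene lists, the cytosolic heat shock response was one whose tested members all lay on the same side. These chaperones bind unfolded proteins, and heat shock factor 1 drives many of their genes. All 13 were lower after transfer, with a median of -0.21 against -0.01 over all genes, and 3 of them were called (Hspa1a, Hspa1b and Hspb1), against 1.95% of all genes called lower. The members were read in the same 16 livers, so their number is not a number of independent observations. Called or not, 10693 of the 20404 genes were lower, which is the share to set beside the direction counts of the lists. In either direction 3.66% of all genes were called, so a list of this size with 1 call or none is near the share over all genes.

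Hspa1a and Hspa1b are near-identical genes of the inducible Hsp70. The middle 30 bases of their probes are shown because the longest run of bases that the probes share is 5. Whether either probe also matches the transcript of the other gene was not examined here, so how far each level is that of 1 gene is uncertain.
Hspa1a: tctttcagttactttgtgtattgcacgtgg
Hspa1b: aaagatggtgtagtccttcctgcatagatg
The Hspa1a probe lies at chr17:35106766-35106825 (mm9, minus strand).
Hspa1b was at 1.22, 2.38, 2.99, 2.98, 3.02 and 2.92 in Conv + PBS mice, at 0.90, 1.64, 2.33, 1.42 and 2.32 in Conv + LM mice, and at 0.73, 2.08, 2.09, 2.89 and 1.90 in Conv + OM(HFD) mice. The other 5 vehicle mice were high, mouse 1 was low, and 2 recipients were below all 6. The difference was -0.75 ± 0.34 (SE; limma p = 0.0404, exact permutation p = 0.0507), and it was -1.37 on slide 1 and -0.12 on slide 2. Hspa1a was at 0.12, 0.92, 1.66, 1.65, 1.12 and 1.57 in Conv + PBS mice. In recipients Hspa1a ranged from -1.13 to 0.91 in Conv + LM and from -1.17 to 1.68 in Conv + OM(HFD), with a difference of -0.84 ± 0.39 (SE; limma p = 0.0478, exact permutation p = 0.0497) that was -1.48 on slide 1 and -0.19 on slide 2.

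Hspb1, a small heat shock protein, was at 4.53, 4.29, 4.61, 5.34, 5.38 and 5.11 in Conv + PBS mice, at 4.20, 3.42, 4.22, 4.11 and 4.67 in Conv + LM mice, and at 3.41, 4.22, 4.33, 5.17 and 4.76 in Conv + OM(HFD) mice. The difference was -0.63 ± 0.25 (SE; limma p = 0.0262, exact permutation p = 0.0337), with -0.77 on slide 1 and -0.48 on slide 2. Hsph1 (-0.42) and Dnajb1 (-0.34), cochaperones of Hsp70, were not called, and Hsf1 itself stood at -0.02. Without mouse 1, the vehicle mouse of lowest heat shock level, 8 of the 13 were called lower, against 2.73% of all genes, and the median was -0.35. Without Conv + OM(HFD) mouse 25, 1 was called, against 1.81% of all genes, and the median was -0.16. The differences without mouse 25 were -0.63 for Hspa1a and -0.60 for Hspa1b. With the place in the mouse numbers as a term, 6 were called, Dnajb1 and Hsph1 among them, against 2.6% of all genes, and the median was -0.19. The call of Hspa1a was kept when mouse 1, 15, 17, 26 or 29 was left out and lost without any of the other 11. That of Hspa1b was kept without mouse 1, 2, 15, 17, 26, 28 or 29 and lost without any of the other 9, and that of Hspb1 was lost without Conv + PBS mouse 4, 5 or 6.

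A heat shock element, searched as GAA, 2 free bases, TTC, 2 free bases and GAA on both strands, was found in 0.603% of the 32851 RefSeq promoter windows of GRCm38.p6, which run from 250 bases before to 50 after the start. Of the 13 heat shock genes 9 had a window, and 3 held a match (Hspd1, Hspe1 and Hsph1). Hspd1 and Hspe1 are neighbours transcribed away from a shared promoter, and the 250 bases before the start of Hspe1 (chr1:55087898-55088147, plus strand) are printed with the overlapping matches of both strands in capitals.
Hspe1 promoter: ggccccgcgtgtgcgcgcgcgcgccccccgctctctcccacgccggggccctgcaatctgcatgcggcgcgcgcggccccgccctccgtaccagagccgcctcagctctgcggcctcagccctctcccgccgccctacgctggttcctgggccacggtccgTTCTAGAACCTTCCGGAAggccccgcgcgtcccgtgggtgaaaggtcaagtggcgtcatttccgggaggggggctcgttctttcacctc
The mitochondrial chaperonins Hspd1 (-0.07) and Hspe1 (-0.11) were not called.

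Genes of fatty acid synthesis, not all of them enzymes, were lower after transfer in 19 of 22 cases, with a median of -0.23. The 4 called were Acaca, Acacb, Acss2 and Me1, against 1.95% of all genes called lower. These make malonyl-CoA (Acaca, Acacb), activate acetate (Acss2) and supply NADPH (Me1). Acacb was at 4.83, 4.76, 4.94, 4.97, 5.35 and 5.15 in Conv + PBS mice, at 5.09, 4.72, 4.03, 3.99 and 4.92 in Conv + LM mice, and at 4.23, 4.69, 3.78, 4.72 and 4.70 in Conv + OM(HFD) mice. In all, 8 of 10 recipients were below every vehicle mouse, 2 were not, and the difference was -0.51 ± 0.19 (SE; limma p = 0.0158, exact permutation p = 0.0122). Within slides it was -0.45 and -0.48, and the call was lost with the mean of all its probes.

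Me1 was at 5.49, 5.32, 5.36, 5.65, 5.68 and 5.37 in Conv + PBS mice, at 5.38, 4.72, 5.22, 4.95 and 5.0 in Conv + LM mice, and at 4.60, 5.55, 5.07, 5.32 and 5.23 in Conv + OM(HFD) mice. The difference was -0.37 ± 0.13 (SE; limma p = 0.0121, exact permutation p = 0.00899), and its 2 probes agreed in sign. Acss2 differed by -0.39 ± 0.15 (SE; limma p = 0.0173, exact permutation p = 0.0275), and its call was lost without Conv + PBS mouse 2. Acaca differed by -0.43 ± 0.20 (SE; limma p = 0.0489, exact permutation p = 0.0654), and its call was kept without mouse 3, 6, 13, 14, 25 or 26 and lost without any of the other 10. Fasn, the fatty acid synthase, had a difference of -0.45 ± 0.29 (SE; limma p = 0.139, exact permutation p = 0.194), which was -0.14 in Conv + LM and -0.76 in Conv + OM(HFD), and Acly (-0.46) and Elovl6 (-0.47) were not called. Over the list, the median was -0.12 for Conv + LM and -0.29 for Conv + OM(HFD), and 2 of its 22 genes were called between the recipient groups. The lipogenic list's mean level ran from 4.00 to 4.62 in Conv + PBS mice and from 3.83 to 4.51 in recipients, so the groups overlapped widely. With the place in the mouse numbers as a term 7 were called, Fasn, Acly and Elovl6 among them, against 2.6% of all genes.

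Of 24 cholesterol genes tested, 21 were lower, with a median of -0.13, and 3 were called, among them Insig1, against 1.95% of all genes called lower. Insig1, which holds the sterol-sensing complex in the endoplasmic reticulum, was at 1.49, 1.86, 1.42, 1.73, 1.58 and 1.70 in Conv + PBS mice, at 1.43, 1.20, 1.07, 1.52 and 1.42 in Conv + LM mice, and at 1.19, 1.44, 1.1, 1.42 and 1.41 in Conv + OM(HFD) mice. The difference was -0.31 ± 0.09 (SE; limma p = 0.00348, exact permutation p = 0.00275), nearly the same in Conv + LM (-0.30) and Conv + OM(HFD) (-0.32), and the call was kept when each mouse in turn was left out but not with the array median subtracted. Sqle (-0.41), which makes the epoxide of squalene, and Hmgcs1 (-0.13), which makes HMG-CoA, were not called. With the place in the mouse numbers as a term, 6 cholesterol genes were called, all lower, against 2.6% of all genes called lower.

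A sterol regulatory element, searched as TCACNCCAC on both strands, was held by 1.24% of all promoter windows and by 1 of the 17 cholesterol genes that had a window, Hmgcs1. It is shown in capitals in the 250 bases before the Hmgcs1 start (chr13:119690101-119690350, GRCm38.p6, plus strand).
Hmgcs1 promoter: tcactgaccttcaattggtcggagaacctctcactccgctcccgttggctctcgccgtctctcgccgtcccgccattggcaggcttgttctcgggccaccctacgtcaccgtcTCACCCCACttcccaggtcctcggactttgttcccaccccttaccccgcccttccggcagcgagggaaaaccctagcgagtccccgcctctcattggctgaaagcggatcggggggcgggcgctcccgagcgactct

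**Figure D4:**
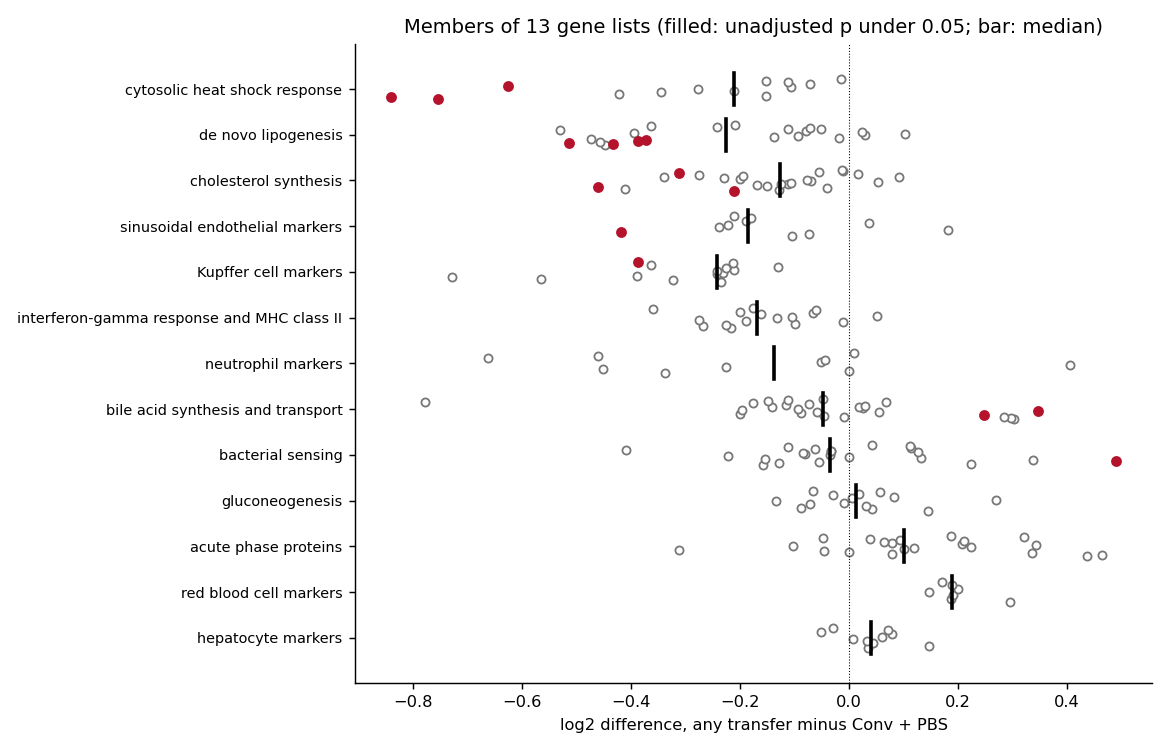
Log2 difference between any transfer and Conv + PBS (horizontal axis) for the tested members of 13 gene lists (rows), with called genes filled and the list's median as a bar. Heat shock, lipogenic and cholesterol genes lie mostly below 0, and 3, 4 and 3 of their members are called.

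Genes of bile acid synthesis and of the response to foreign compounds gave few calls. Acox2, the peroxisomal oxidase that shortens the side chain of bile acid precursors, was at 5.97, 6.48, 6.41, 6.28, 6.02 and 6.12 in Conv + PBS mice, at 6.53, 6.81, 6.92, 6.48 and 6.58 in Conv + LM mice, and at 6.67, 6.27, 6.31, 6.30 and 6.75 in Conv + OM(HFD) mice. It differed by 0.35 ± 0.11 (SE; limma p = 0.00601, exact permutation p = 0.0105) and kept its call without each mouse in turn. Hsd3b7, an earlier enzyme of the same route, differed by 0.25 ± 0.11 (SE; limma p = 0.0421, exact permutation p = 0.0517), with 0.40 in Conv + LM and 0.10 in Conv + OM(HFD), and the recipient groups were called apart by -0.30. Its call was kept without mouse 1, 2, 3, 14, 16 or 28 and lost without any of the other 10. Cyp7a1, the rate-limiting enzyme of bile acid synthesis, stood at 0.30 ± 0.47 (SE; exact permutation p = 0.537). In all, 10 of the 25 bile acid genes were higher and 15 were lower, with 2 called, both higher, against 1.71% of all genes called higher.

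Nr1i2, the pregnane X receptor, which bacterial indoles and bile acids can activate, differed by 0.23 ± 0.09 (SE; limma p = 0.0279, exact permutation p = 0.024), and 7 of 10 recipients were above every vehicle mouse. Its call was lost without Conv + PBS mouse 1 (0.17) or 2. Abcb1a, an efflux pump among the genes this receptor can induce, went the other way: it differed by -0.44 ± 0.14 (SE; limma p = 0.00689, exact permutation p = 0.0115), from a mean of -0.42 in Conv + PBS mice to -0.83 in Conv + LM and -0.90 in Conv + OM(HFD) mice. Over the 17 tested genes of the list of CAR and PXR, which holds both receptors beside their targets, the median was -0.03. Its calls were 1 higher and 1 lower, against 1.71% and 1.95% of all genes. Tiparp, a target of the aryl hydrocarbon receptor, differed by -0.21 ± 0.09 (SE; limma p = 0.0359, exact permutation p = 0.037), a call lost without mouse 1 (-0.17), 4, 5, 16, 17 or 25, and Cyp1a1, the receptor's best-known target, was well above background on 7 of 16 arrays.

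Among 22 receptors and adaptors that sense bacteria, 1 was called, near the 3.66% of all genes called in either direction. Tlr5, the receptor of flagellin, was at -0.58, -0.93, -1.37, -1.14, -1.65 and -0.79 in Conv + PBS mice, at 0.19, -0.99, -0.49, -0.78 and -0.10 in Conv + LM mice, and at -0.58, -0.41, -1.43, -0.39 and -0.89 in Conv + OM(HFD) mice. It differed by 0.49 ± 0.21 (SE; limma p = 0.0344, exact permutation p = 0.049), and its call was lost without mouse 3, 4, 5, 13, 17, 25, 26 or 29. The other 21 tested members of its list were not called. Tlr4, the receptor of lipopolysaccharide, stood at -0.16 ± 0.09 (SE; exact permutation p = 0.0907), and Tnf at 0.48 ± 0.23 (SE; exact permutation p = 0.0612). Of 16 cytokines and chemokines, 22 type I interferon targets and 21 acute phase proteins, none was called. Saa1, an acute phase protein, ranged so widely that its difference of 0.44 had an SE of 0.62. A single Conv + OM(HFD) mouse stood at 9.58, against a group median of 5.54, and weighed heavily on that difference. It was 1.41 on slide 1 and -0.71 on slide 2.

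Markers of Kupffer cells, the resident macrophages of the liver, were lower after transfer in 14 of 14 cases (median -0.24), and Fcna was the 1 called. Over all genes 10693 of 20404 were lower and 3.66% were called in either direction, so 1 call here is near that share. Bulk arrays cannot tell fewer cells of a type from less RNA per cell. The summed level of the 14 markers, on the linear scale where the 75th percentile is 1, was 57.8 to 296.2 in Conv + PBS mice and 48.9 to 139.2 in recipients, and the top value was that of mouse 1. Without mouse 1, 7 of the 14 were higher and 7 lower, none was called and the median was -0.00. Fcna, a ficolin that binds bacterial sugars, was at 2.10, 1.27, 1.01, 1.43, 1.40 and 1.01 in Conv + PBS mice and between 0.72 and 1.45 in recipients. Its difference of -0.39 ± 0.16 (SE; limma p = 0.0245, exact permutation p = 0.0292) became -0.24 without mouse 1 and was then not called. The 16 interferon-gamma and MHC class II genes turned in the same way: 15 were lower with all mice (median -0.17), and 14 were higher without mouse 1 (median 0.14), with none called in either case.

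**Figure D5:**
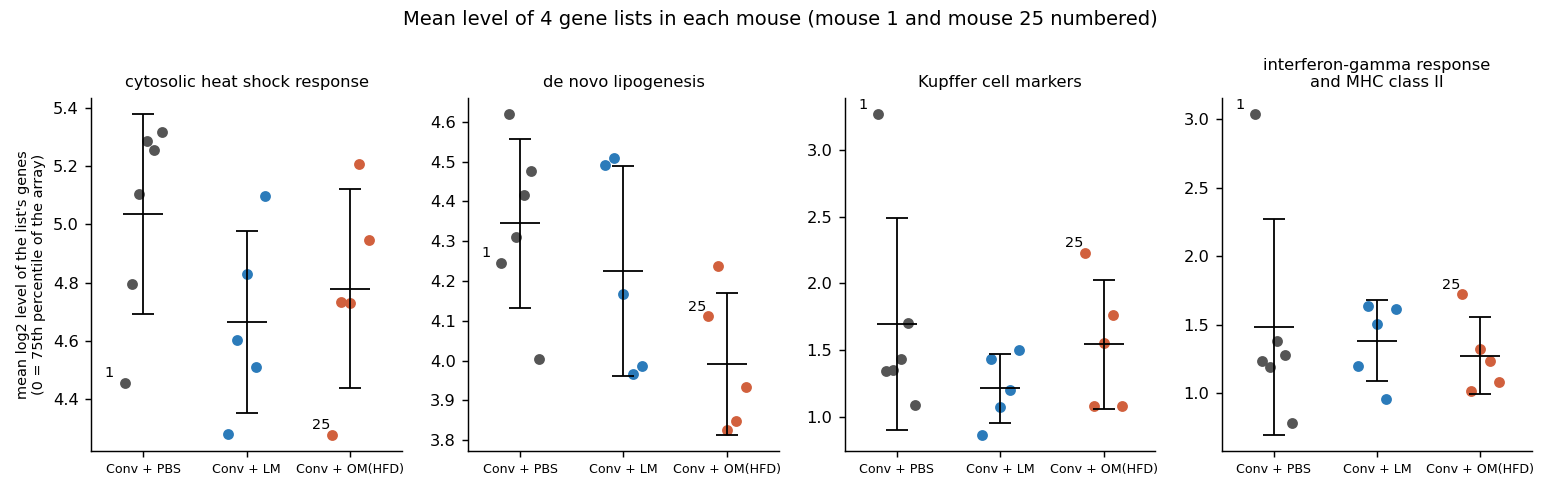
Mean log2 level of 4 gene lists (vertical axes) in each mouse of the 3 groups (points), with the group mean ± SD as bars and mice 1 and 25 numbered. Mouse 1 lies at 3.27 for Kupffer cell markers and at 3.04 for interferon-gamma and MHC class II genes, above the other 15 mice.

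Sinusoidal endothelial markers were lower in 8 of 10 cases (median -0.18), and 9 of 10 without mouse 1. Clec4g, a lectin of these cells, was the 1 called, near the 3.66% of all genes called in either direction. It was at 4.59, 4.68, 4.77, 4.71, 4.85 and 4.61 in Conv + PBS mice, at 4.23, 3.90, 4.53, 4.71 and 4.33 in Conv + LM mice, and at 3.55, 4.72, 4.13, 4.25 and 4.46 in Conv + OM(HFD) mice. Vehicle mice were close together and 8 of 10 recipients were below them all, for a difference of -0.42 ± 0.15 (SE; limma p = 0.0137, exact permutation p = 0.00549), but it was -0.71 on slide 1 and -0.13 on slide 2. Red blood cell genes were higher in 7 of 7 cases (median 0.19) with none called. That median was 0.03 without Conv + PBS mouse 2 and 0.32 without Conv + PBS mouse 4, and their part in the differences above was not tested. Of the lymphocyte markers, 1 of 11 was called (Cd3g, -0.36), again near the 3.66% of all genes. The Cd3g call was lost without mouse 1 (-0.27) and with normexp background correction (-0.08). Cd79a, a defining B cell marker, was well above background on 0 arrays.

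Several groups gave no call in either direction, which for lists of their size is near the 3.66% of all genes called. None of 14 gluconeogenic genes was called (median 0.01), and Pck1 stood at 0.15 ± 0.10 (SE; exact permutation p = 0.143). The same was true of 24 PPAR-alpha and fasting genes (median 0.01), of 5 morning and 11 evening clock genes (medians -0.01 and 0.01, beside their spread with mouse number within each group), of 5 flavin monooxygenases, of 13 iron genes and of 20 genes of the urea cycle and amino acid catabolism. With the place in the mouse numbers as a term, 2 PPAR-alpha and fasting genes and 1 morning clock gene were called higher, against 2.4% of all genes. The other lists just named had no call with it. Cbs, the first enzyme of transsulfuration, was called among 16 methionine and one-carbon genes (0.25 ± 0.12, SE; limma p = 0.0479, exact permutation p = 0.0445), a call kept without mouse 1, 16, 26, 28 or 30 and lost without any of the other 11. G6pdx, which makes NADPH, was the 1 called of 15 NRF2 targets (-0.37), a call lost without Conv + PBS mouse 1 (-0.23) or 5. Manf was the 1 called of 18 unfolded protein response genes (-0.27), a call kept without mouse 2, 6, 13, 16, 28, 29 or 30. Among 13 cell cycle genes, Pcna (-0.21), the clamp of DNA polymerase, and Cdk1 (0.40), which was above background on 10 arrays, pointed in opposite directions. The call of Cdk1 was lost without Conv + PBS mouse 2 or 3 and with normexp background correction (0.12). The median standard error over all genes was 0.12.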

How the data were processed

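Liver RNA of 16 mice was hybridised to 1-colour Agilent mouse arrays, 1 array per mouse, on 2 slides. The authors extracted the signals with Agilent Feature Extraction 10.10.1.1, and the deposited intensity values used here are its processed signals, corrected for background on a linear scale and not normalized between arrays. The authors also deposited log2 values, which follow the quantile-normalized median spot signal and were used as an alternative. Depth in the sense of reads has no counterpart here, and the number of arrays limits the precision. Each mouse is a separate animal, but the donors' content was pooled and the mice shared cages.

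From the intensity values, control spots and spots flagged as non-uniform or population outliers were left out (78 values of tested genes, fitted as missing), repeated spots were averaged, and the log2 values were centred on the array's own 75th percentile. A probe entered the tests if it was well above background on 5 or more of the 16 arrays (30664 of 56605), and the brightest probe stood for a gene name of the array design. Of 20404 names, 14635 matched a current RefSeq symbol of GRCm38.p6, 701 a synonym and 5068 neither. lmFit and eBayes of limma 3.58.1 (R 4.3.3) were fitted to the 3 groups, with the contrast of the mean of Conv + LM and Conv + OM(HFD) against Conv + PBS, and p-values were adjusted by Benjamini-Hochberg over all genes. Exact two-sided permutation tests used scipy 1.17.1. The fit was tested on simulated data.

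Named genes are the 12 of smallest p in each direction (without predicted or clone names), the first gene of each list and up to 4 called members per list, and the 5 called genes of smallest p between recipient groups. Some genes that this rule takes are not reported here. Genes without overlap were added after their values were seen, as were other list members given with values. The members and lists were chosen with earlier results of these data known. Alternatives changed the background correction, scaling, filter, probe rule, slide term, weights, test and mice, and added the place of a mouse in the run of mouse numbers of its group as a linear term.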

Additional observations from a re-analysis of the deposited data

Results flagged for a closer look

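Among 53 called genes, those named above and Ctrb1, a pancreatic protease, levels within each of the 3 groups were screened for a single mouse far from the rest, by the gap to its nearest neighbour as a share of the group's range. Of 159 groups of mice, 9 (5.66%) had such a mouse, and chance gives about 1 in 20. In Conv + PBS mice, mouse 1 was low for Hspa1b (1.22; the others lay between 2.38 and 3.02) and Fhad1 (-1.01; others -0.76 to -0.68), and mouse 4 was high for Smad5 (3.09; others 2.94 to 2.96). In Conv + LM mice, mouse 13 was low for Pak1 (-6.06; others -4.75 to -4.23), whose probe was well above background in none of these 5 mice, mouse 14 was low for Ctrb1 (-0.89; others -0.62 to -0.56), and mouse 15 was high for Dnajc17 (-1.11; others -2.03 to -1.88). In Conv + OM(HFD) mice, mouse 25 was high for Dtx3 (-2.22; others -2.95 to -2.80) and Zfp770 (-0.07; others -0.43 to -0.35), and mouse 28 was low for Hsd3b7 (6.48; others 6.77 to 6.87).

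In 8 of the 53 genes the 2 recipient groups also differed at an unadjusted limma p under 0.05, as did 2.67% of all genes, and none passed adjustment. Of the 8, Slc37a2, Dpy19l4, Abca9, Dnajc17 and Eif4e3 were named for this difference, so their number is fixed by the choice. Conv + OM(HFD) minus Conv + LM was 0.73 for Slc37a2, 1.13 for Dpy19l4, 0.63 for Abca9, 0.41 for Cdk1, -0.58 for Dnajc17, -0.60 for Eif4e3, -0.39 for Lrat and -0.30 for Hsd3b7. The probe of Slc37a2 was well above background in 1 of 5 Conv + LM mice and that of Cdk1 in 2 of 5, so both values are set in part by the floor of the array. Beside Hsd3b7 and Cdk1, given above, the pooled calls of 4 depended on several mice: that of Slc37a2 was lost without mouse 2, 3, 4, 13, 16, 25, 26 or 29, that of Dpy19l4 without mouse 4, 5, 6, 16 or 17, that of Dnajc17 without mouse 5, 6, 15, 25, 26 or 30, and that of Eif4e3 without mouse 2, 3, 5, 14 or 29.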

How the results depend on the processing

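No gene passed adjustment for either comparison under any setting. The number lower at the unadjusted threshold was 398, but 179 with the array median subtracted and 893 with no filter on dim probes, and the share of calls that were higher was 46.7%, 63.5% and 27.0% in turn. The number higher was 349, and 550 with every kept probe on its own (569 were lower, of 30664 probes). Genes without overlap numbered 3, and 0 with normexp, with the array median and with the mean of all probes. Without mouse 1 and mouse 25, an alternative added after the data were seen, 7 of 20404 genes did not overlap. With mice left out, groups part more easily by chance, so a higher count does not mean more separated genes. Between recipient groups, 545 genes were called, 825 with every probe on its own and 862 with the slide as a block. Leaving out each mouse in turn gave 3 to 7 genes without overlap, 264 to 418 higher, 345 to 558 lower and 472 to 767 between recipient groups. Without mouse 1, 558 were lower. None of the 53 called genes named changed sign under any setting. They were chosen by their p in these same mice, so signs and calls that are kept add no support. Of their calls, 33 were kept in all 16 fits without a mouse, 39 with the array median, 42 with normexp, 42 with the mean of probes, 52 with the slide as a block and 47 with the authors' values. The methods' t-test called 363 genes higher and 424 lower, and none after adjustment. The cause of these shifts was not tested. Keeping flagged spots, the other added alternative, lost none of the 53, and nor did a term for the place of a mouse in its group's numbers, also added after the data were seen. No paired analysis was possible because the labels give the groups no number in common and do not say that places in the numbering match mice. The slide as a block and the place as a term were fitted in its stead. Probes near background limit what could be read of dim genes.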
